A study of Homo sapiens with 4 samples.

Results

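The chromosome 1q42 genes described here are 40 genes of the long arm of human chromosome 1, from FBXO28, which starts at 224301813 of hg19, to ARV1, which ends at 231136479. They were selected on measured values, since they were listed for their lowered expression in the same comparison of Helz-null and WT cells that is described here, so their shifts are given as a description with no test. All 40 were found among the 27011 genes of the deposited count table, and 35 of them were in the list of 10978 tested genes, taken by name from the comparison table that the authors deposited. The expression filter behind that list could not be repeated exactly, and 7 of its genes had 0 counts in every library. The RNA-Seq libraries, 2 from WT and 2 from Helz-null cells, were made from HEK293T, a human embryonic kidney line that carries the SV40 large T antigen. The WT cells were unedited HEK293T cells. The Helz-null cells were HEK293T cells in which Cas9 and 1 guide against an exon of the gene for the RNA helicase HELZ had left a small deletion that shifts the reading frame. Both were untreated and were plated a day before harvest. A single edited line was used, and HEK293T cells carry rearranged chromosomes, so the loss of HELZ and any other property of this line cannot be told apart. DNA copy number was not analysed here.

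The listed genes share a chromosome band and no common pathway. They encode proteins of the secretory pathway, ubiquitin ligases, enzymes, mitochondrial factors, nuclear proteins, and signalling, cytoskeletal and membrane proteins. Many of these are used by most dividing cells, but some members, such as LEFTY1, MIXL1 and AGT, had low levels here. Genes that lie side by side share chromatin and can share promoters or enhancers. HELZ itself binds the CCR4-NOT deadenylase complex, which shortens the poly(A) tails of mRNAs.

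Library totals were 65005666 and 42342295 counts for WT replicates 1 and 2 and 41745401 and 70464140 counts for Helz-null replicates 1 and 2. Values are given as CPM, the count of a gene relative to the library total, after TMM scaling, which equalises libraries by the bulk of their genes. HELZ, the edited gene, had 99.8 and 103.9 CPM in the WT libraries and 36.98 and 37.88 CPM in the Helz-null libraries. Both libraries labelled Helz-null were thus low in HELZ mRNA, with a log2FC of -1.44 (SE 0.0423, edgeR adjusted p = 2.13e-27). Genes known to be expressed in HEK293T cells were present, with VIM at 1074 and 1071 CPM in the WT and 979 and 964 CPM in the Helz-null libraries. NEFL, NEFM, KRT8, KRT18, PAX2 and LHX1 were also detected in each library. Among the tested markers NEFM was called higher in Helz-null cells (log2FC 0.89), and KRT8 (-0.98), KRT18 (-0.16) and VIM (-0.14) were called lower. The call of KRT18 was lost with DESeq2, with scaling by library size only and without any of 3 libraries, and that of VIM without Helz-null replicate 2. LHX1, which was not tested, had 2.98 and 2.68 CPM in WT and 6.58 and 4.89 CPM in Helz-null cells. Of the markers of other cell types, DCN had 0 counts in every library, and PTPRC, PECAM1 and ALB had between 0 and 6 counts. MYOD1 had 17 to 44 counts, and COL1A1 without DCN stood at 14.3 to 16.0 CPM.

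The tested members were all lower in Helz-null cells, by amounts that varied between genes. Summed over all 40 genes, their level was 6307 and 6287 CPM in the WT libraries and 4171 and 4195 CPM in the Helz-null libraries. The log2FC was below 0 for 35 of 35 tested members, with a median of -0.57, which corresponds to 67.5% of the WT level, and an SD of 0.15 across genes. The quartiles were -0.71 and -0.47, and the extremes -0.84 (TTC13) and -0.28 (ABCB10). Over all 10978 tested genes the median was 0.00 and the quartiles -0.11 and 0.10. At an FDR under 0.005, 35 of 35 tested members were called lower, beside 15.5% of all tested genes. No member was called higher, beside 13.9% of all tested genes. In each of the 35, both Helz-null libraries lay below both WT libraries, which held for 35.7% of all tested genes. These counts follow from how the members were chosen, and nothing is read from them. The WT libraries of a tested member differed by -0.15 to 0.25 on the log2 scale, the widest being IBA57, and the Helz-null libraries by -0.09 to 0.19.

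Of the 40 genes, 7 act in the secretory pathway and its membranes, and all 7 were tested, with a median log2FC of -0.64. ARF1, the GTPase that recruits coat proteins to the Golgi, was the member with the highest level per length, at a mean of 453.8 FPKM in WT cells. It had 996 and 999 CPM in the WT libraries and 644 and 636 CPM in the Helz-null libraries. The replicates of ARF1 nearly coincided while the groups stood apart, with a log2FC of -0.64 (SE 0.0265). COG2, a subunit of the complex that tethers vesicles to the Golgi, had 77.2 and 79.1 CPM in WT and 47.0 and 43.7 CPM in Helz-null cells. Its Helz-null libraries were both low, and the log2FC was -0.79 (SE 0.0445). SNAP47, a SNARE protein, had a log2FC of -0.79, and ACBD3, a Golgi adaptor protein, one of -0.66. The shifts were smaller for RAB4A, a GTPase of recycling endosomes, with 79.9 and 82.6 CPM in WT and 60.2 and 61.7 CPM in Helz-null cells. GALNT2, which starts mucin-type O-glycosylation, and CNIH4, a cargo receptor of the endoplasmic reticulum, both had a log2FC of -0.47.

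Ubiquitin ligase components made up 5 members, of which 4 were tested, with a median log2FC of -0.61. FBXO28, an F-box protein, had 131 and 134 CPM in WT and 80.0 and 80.8 CPM in Helz-null cells. Groups of FBXO28 did not overlap, and its log2FC was -0.72 (SE 0.0351). TRIM11 had a log2FC of -0.68, and its Helz-null libraries, at 47.4 and 41.7 CPM, differed more than those of any other tested member on the log2 scale (0.19). WDR26, a subunit of the CTLH ligase, had 205.2 and 205.5 CPM in WT and 141.2 and 141.5 CPM in Helz-null cells. Its replicates were close, and its log2FC of -0.54 lay near the members' median. RNF187, a RING finger ligase, was shifted less, with a log2FC of -0.45.

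The 4 enzymes of lipid, nucleotide and xenobiotic metabolism were all tested, with a median log2FC of -0.51. DEGS1, the desaturase of the last step of de novo ceramide synthesis, had 226 and 241 CPM in WT and 141 and 148 CPM in Helz-null cells. Its log2FC was -0.69 (SE 0.0333), the lowest of these enzymes. For ARV1, which takes part in sterol transport, GUK1, the guanylate kinase, and EPHX1, the microsomal epoxide hydrolase, the log2FC was -0.53, -0.49 and -0.47.

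Among the 3 mitochondrial factors, the log2FC ranged from -0.66 to -0.28. ADCK3, annotated as COQ8A, an atypical kinase needed for coenzyme Q synthesis, had 122 and 117 CPM in WT and 74.9 and 76.8 CPM in Helz-null cells. ABCB10, a transporter of the inner membrane, had 101.5 and 106.6 CPM in WT and 86.5 and 84.8 CPM in Helz-null cells. The groups of ABCB10 still did not overlap, but its Helz-null level was 82.3% of WT, the highest share of any tested member. IBA57, a factor of iron-sulfur cluster assembly, had a log2FC of -0.52 (SE 0.0565).

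Nuclear proteins and factors of ribosome biogenesis formed the largest set, with 10 of 11 tested and a median log2FC of -0.57. PARP1, which marks DNA breaks with poly(ADP-ribose), had 1071 and 1019 CPM in WT and 651 and 673 CPM in Helz-null cells. The drop in PARP1 was present in both Helz-null libraries, with a log2FC of -0.66 (SE 0.0281). SDE2, a factor of splicing and replication, had a log2FC of -0.79. LIN9, a subunit of the MuvB complex that controls cell cycle genes, and JMJD4, an oxygenase that hydroxylates a translation release factor, both had one of -0.77. LBR, the lamin B receptor and a sterol reductase, had 350 and 356 CPM in WT and 241 and 243 CPM in Helz-null cells. Its log2FC of -0.55 was close to those of TAF5L, a subunit of the SAGA coactivator (-0.54), URB2, a ribosome biogenesis factor (-0.57), and PGBD5, a gene derived from a transposase (-0.57). NVL, an ATPase that acts in maturation of the large ribosomal subunit, had a log2FC of -0.46. NUP133, a scaffold subunit of the nuclear pore, had 215.3 and 224.3 CPM in WT and 173 and 175 CPM in Helz-null cells. Its level was 79.2% of WT, which placed it next to ABCB10 at the weak end.

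Of 8 genes for signalling, cytoskeletal and membrane proteins, 5 were tested, with a median log2FC of -0.58. CDC42BPA, a kinase that acts downstream of the GTPase CDC42, had 129.9 and 129.1 CPM in WT and 74.2 and 72.7 CPM in Helz-null cells. PSEN2, a catalytic subunit of gamma-secretase, had 49.4 and 48.3 CPM in WT and 28.4 and 27.2 CPM in Helz-null cells. Both stood at the strong end, each with a log2FC of -0.82. ENAH, a regulator of actin filaments, and TMEM63A, an ion channel opened by membrane stretch, had a log2FC of -0.52 and -0.58. RHOU, an atypical small GTPase, had 35.4 and 36.9 CPM in WT and 28.1 and 26.4 CPM in Helz-null cells, with a log2FC of -0.41 (SE 0.0570). The remaining 2 tested members were TTC13, a tetratricopeptide repeat protein, and C1orf198, which were at opposite ends. TTC13 had 43.7 and 46.7 CPM in WT and 24.4 and 25.8 CPM in Helz-null cells, and C1orf198 had 80.1 and 79.4 CPM in WT and 61.2 and 63.2 CPM in Helz-null cells.

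A member was taken to escape the common shift where the 95% interval of its log2FC lay wholly above the median of the tested members. This held for 10 of the 35, and no interval of these 10 reached 0. In order from the weakest they were ABCB10 (95% interval -0.35 to -0.21), NUP133 (-0.40 to -0.27), C1orf198 (-0.44 to -0.28), RHOU, RAB4A, RNF187, NVL, CNIH4, GALNT2 and GUK1. The interval of GUK1 ended at -0.56, just above the median, and that of EPHX1, which contained it, at -0.57. Intervals lay wholly below the median for 15 members, led by TTC13 (-0.96 to -0.73), CDC42BPA (-0.89 to -0.75) and PSEN2 (-0.92 to -0.71), and contained it for the other 10. The count of 10 depends on the members' own median as the reference. The median of the 43 tested genes from FBXO28 to C1orf198, listed or not, was lower, at -0.64. Intervals of WDR26, LBR, ENAH, EPHX1, IBA57, TAF5L, URB2 and ARV1 also lay wholly above that value. Over the 102 tested genes of the wider run described below, from LYPLAL1 to COX20, members included, the median was -0.51. The bounds of that run were chosen after the values were seen. Only the intervals of ABCB10, NUP133, C1orf198 and RAB4A lay wholly above its median. That every member lay below 0 follows from how they were chosen. The spread between members, with an SD of 0.15, exceeded the error of single genes, whose median SE was 0.0367. It was not wider than that of other genes, with an SD of 0.28 over all tested genes and 0.20 over chromosome 1 before LYPLAL1.

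**Figure D1:**
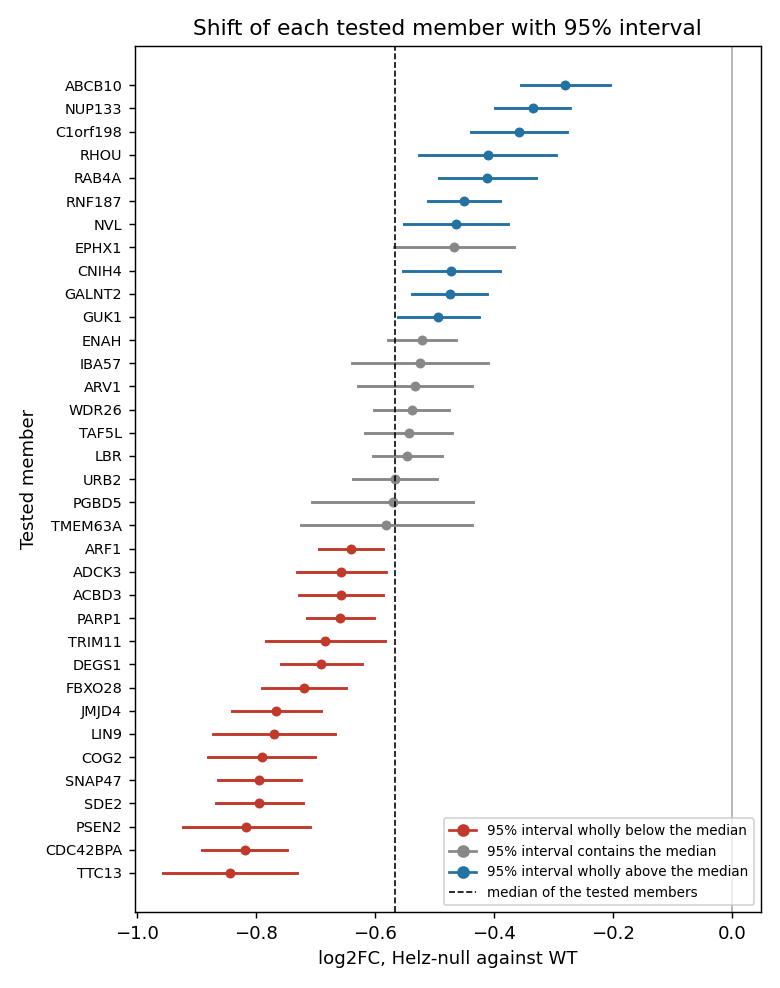
Log2FC of Helz-null against WT cells (horizontal axis) for each of the 35 tested members (vertical axis, ordered by value), with points as estimates and lines as 95% intervals from 2 libraries per group. The dashed line is the members' median of -0.57; 10 intervals lie above it (blue), 15 below it (red) and 10 contain it (grey), and none reaches 0.

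The 5 members outside the list of tested genes had low levels, with a mean of at most 1.17 FPKM. ITPKB, an inositol trisphosphate kinase, had 9.70 and 7.83 CPM in WT and 6.03 and 5.22 CPM in Helz-null cells. Its groups did not overlap, and without a filter on low counts its log2FC was -0.67 (95% interval -0.88 to -0.46). TRIM17, a ligase next to TRIM11, had 54 and 34 counts in WT and 10 and 18 counts in Helz-null cells, or 0.860 and 0.829 against 0.242 and 0.258 CPM. Without a filter its log2FC was -1.74, with a wide 95% interval of -2.55 to -0.94. MIXL1, a homeobox factor of early mesendoderm, had 1.05 and 1.12 CPM in WT and 0.871 and 0.832 CPM in Helz-null cells, and its interval of -0.89 to 0.18 without a filter included 0. LEFTY1, an inhibitor of Nodal signalling, had 14 and 4 counts in WT and 2 and 0 counts in Helz-null cells, both of the latter under the floor of 3 counts, so no fold is given. AGT, which encodes angiotensinogen, had 2 and 2 counts in WT and 2 and 9 counts in Helz-null cells, so that 3 of its 4 libraries were under this floor and no fold is given either. For AGT and MIXL1, a shift was not detectable at this depth.

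The size of the shift had little rank correlation with the level, length or order of the genes. Across the 35 tested members, which share the same 4 libraries and are not independent replicates, the Spearman correlation with the log2FC was 0.06 for the WT FPKM, 0.13 for the counted width, -0.19 for the annotated span and 0.17 for the position of the start, a measure that does not register a dip within the stretch. The 17 members on the plus strand had a median log2FC of -0.53 and the 18 on the minus strand one of -0.58. Their WT levels were mostly above average, with 30 of the 35 at or above the median FPKM of all tested genes. Windows of 2 Mb were compared after the values were seen, so their differences are given as a description. The 10 tested members from TMEM63A to JMJD4 had a median log2FC of -0.77, with -0.82 to -0.58 as extremes. Medians were -0.53 for the 8 members before them, from FBXO28 to EPHX1, and -0.49 for the 11 after them, from ARF1 to URB2, where 6 of the 10 weakly shifted genes lay. The last 6 members, from GALNT2 to ARV1, had values from -0.84 to -0.36.

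Genes between the same positions that were not listed were also lower, with a median below that of the members. Of the 10 unlisted tested genes within the listed stretch, all 10 had a log2FC below 0, from -0.98 to -0.53 with a median of -0.76, and 9 were called lower. The exception was the histone gene HIST3H2BB, with under 1 CPM in every library and an edgeR adjusted p of 0.0478, named after its value was seen. Among the 5 with the highest counts were H3F3A, a gene for histone H3.3 (log2FC -0.64), SRP9, a subunit of the signal recognition particle (-0.77), CCSAP, a centriole-associated protein (-0.64), and MRPL55, a mitochondrial ribosomal protein (-0.68). H3F3A and SRP9 have near-identical copies elsewhere in the genome, so their counts are uncertain.

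The shift did not end at the first and the last listed gene. Just outside the list, TP53BP2 and CAPN2 before FBXO28 had a log2FC of -0.46 and -0.45, and FAM89A after ARV1 had one of -0.33. Of the 10 tested genes before the first member, 10 were below 0 and 9 were called lower, with a median of -0.33. BROX, an endosomal Bro1-domain protein, was not called (log2FC -0.06, between -0.09 and -0.02 under the alternatives). The call of HLX, a homeobox gene in this group, was lost under 5 of the alternatives, DESeq2 among them, and its log2FC of -0.30 became -0.17 without WT replicate 1. The call of MARC1 was lost without WT replicate 1, where its log2FC of -0.20 became -0.14, and without Helz-null replicate 1, and that of TAF1A without Helz-null replicate 1. All 10 tested genes after the last member were called lower, with a median of -0.44. Among these, TSNAX and the readthrough gene TSNAX-DISC1 share reads and are not separate observations.

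Farther out, the values stayed low up to about 245 Mb of chromosome 1. With the members left out, the median log2FC was -0.30 for the 15 tested genes that start between 220 and 225 Mb, -0.76 for the 10 between 225 and 230 Mb and -0.41 for the 15 between 230 and 235 Mb. No members lie beyond, where it was -0.47 for the 14 genes between 235 and 240 Mb and -0.56 for the 12 between 240 and 245 Mb. Between 245 and 250 Mb the median of 14 genes was -0.02. With bounds chosen after the values were seen, the stretch from LYPLAL1 to COX20 held 67 tested genes besides the members, of which 64 were below 0 and 62 were called lower, with a median of -0.46. The tested gene just before this stretch, RRP15, a factor of ribosome biogenesis, was also called lower (log2FC -0.49), and GPATCH2 before it was not (-0.04). Within the stretch, only GNG4, a G protein gamma subunit, was called higher, with 33.2 and 34.3 CPM in WT and 43.6 and 41.3 CPM in Helz-null cells (log2FC 0.33). FH, the fumarate hydratase of the citric acid cycle, had a log2FC of 0.04 and OPN3, an opsin, one of 0.07, and neither was called. The alternatives gave 0.03 to 0.08 for FH and 0.03 to 0.11 for OPN3. HNRNPU, an RNA-binding protein next to COX20, was called lower with a log2FC of -0.19, and none of the 13 tested genes beyond it was called by edgeR or by DESeq2, with 3 at an unadjusted p under 0.05. RRP15, GPATCH2, GNG4, FH, OPN3 and HNRNPU were singled out after their values were seen. On the rest of chromosome 1, before LYPLAL1 and with RRP15 included, the median of 984 genes was 0.02.

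**Figure D2:**
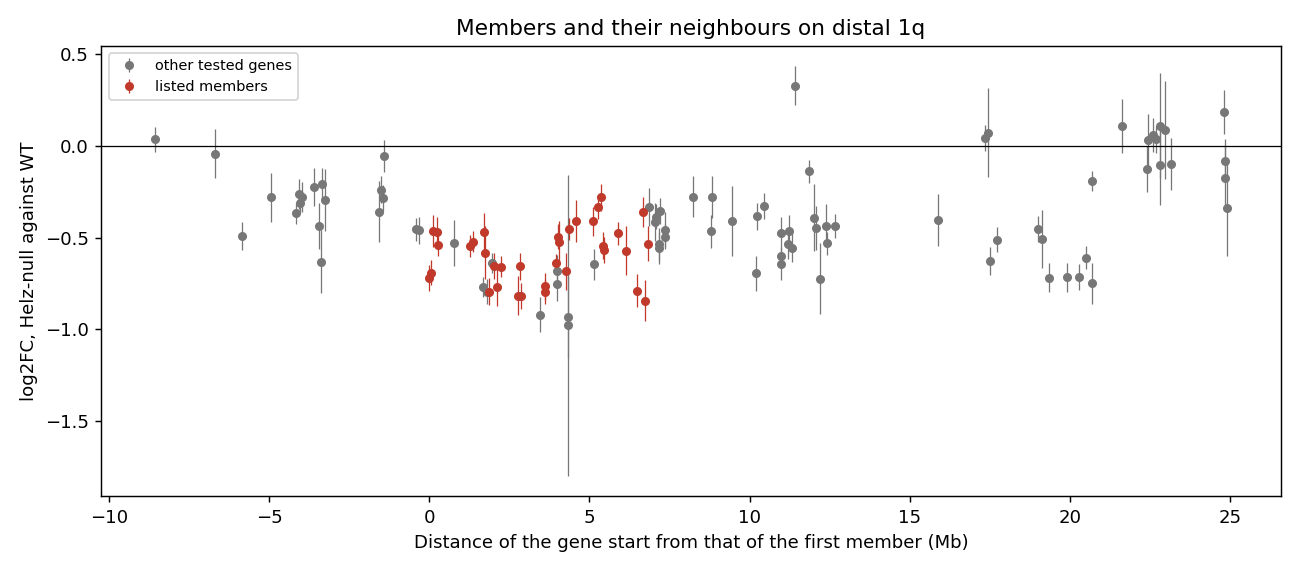
Log2FC of Helz-null against WT cells (vertical axis, bars 95% intervals) for tested genes of distal 1q, by the distance of their start from that of the first member, FBXO28, in Mb (horizontal axis). Red points are the 35 tested members and grey points other tested genes; the members lie between -0.84 and -0.28, in a longer run of low values that ends near the right side.

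In 3 places, a pair of members is arranged head to head, with starts of the canonical transcripts on opposite strands 125 to 233 bases apart. TAF5L and URB2, 125 bases apart, had a log2FC of -0.54 and -0.57, and JMJD4 and SNAP47, 133 bases apart, -0.77 and -0.79. The differences within these pairs were 0.02 (95% interval -0.08 to 0.12) and 0.03 (-0.07 to 0.13), within the error of the libraries. JMJD4 lies within the span of SNAP47, so the same reads may enter both values if strand was not used in counting. The intervals of differences take the values of a pair as independent. TTC13 and ARV1, 233 bases apart, had -0.84 and -0.53, a difference of -0.31 (-0.45 to -0.17). Of the 3 pairs, the interval of the difference left out 0 only for TTC13 and ARV1. The pairs were not a planned comparison, and TTC13 has the lowest log2FC of all tested members, so the differences are given as a description. Their intervals came from the normal distribution, not from the t distribution used for single genes, and are narrower for it. To show what lies between such starts, the stretches with no annotated exon are printed from GRCh37 (hg19), on the plus strand; between JMJD4 and SNAP47 the 133 bases hold annotated exons throughout and are not printed. The CCAAT motif, the GC box written GGGCGG and the TATA box written TATAAA, which can share a few bases at their ends, were searched on both strands and are in capitals where found.
TAF5L to URB2, chr1:229761870-229761993: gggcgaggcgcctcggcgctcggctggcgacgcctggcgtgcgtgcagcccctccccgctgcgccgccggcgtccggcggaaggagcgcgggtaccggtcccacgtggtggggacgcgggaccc
TTC13 to ARV1, chr1:231114622-231114726: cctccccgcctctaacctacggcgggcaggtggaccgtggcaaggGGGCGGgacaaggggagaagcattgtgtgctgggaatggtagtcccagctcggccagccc
The stretch between TAF5L and URB2 is 124 bases long with a GC content of 81.5% and held no match. That between TTC13 and ARV1 is 105 bases long with a GC content of 67.6% and held the GC box once, on the plus strand. Among 10894 windows of 105 bases before the starts of tested genes, 59.2% held the GC box, 23.1% the CCAAT motif and 2.20% the TATA box. In windows of 124 bases the shares were 63.1%, 25.5% and 2.37%. A match is a description of these letters and no more.

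Some members overlap other coding genes on the opposite strand, and whether the counting used the strand was not given in the sources used here. JMJD4 lies within the span of SNAP47, TMEM63A and EPHX1 share 28 bases, COG2 and AGT share 3207 bases and WDR26 and CNIH3 share 2374 bases, so the values of these members are uncertain to that extent. The 29 tested members without such an overlap had a median log2FC of -0.55.

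Several members are subunits or enzymes of complexes and pathways whose other genes lie outside the listed stretch. In 11 lists of such partners, 98 of 102 genes were tested, 9 were called lower and 12 higher, which is 9.18% and 12.2% beside 15.5% and 13.9% of all tested genes. Their median log2FC was -0.01, and 1 of the 98 was at or below the members' median. In the COG complex of COG2, COG1 and COG4 were called higher (log2FC 0.19 and 0.16) and the other 5 partners were not called. In the pore subcomplex of NUP133, SEC13 was lower (-0.32) and NUP107 higher (0.13), with 6 not called. Among these 6 was AHCTF1 (0.04), which lies on distal 1q beyond HNRNPU. Of the CTLH ligase of WDR26, ARMC8 (-0.20) and MKLN1 (-0.17) were lower and YPEL5 (0.29) was higher. RBBP4 (0.15) was the only called partner of LIN9 among 11 genes of the MuvB and DREAM complexes. In SAGA, the complex of TAF5L, ATXN7 was lower (-0.37), and SUPT20H (0.22), USP22 (0.19) and TAF10 (0.18) were higher.

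The gamma-secretase list of PSEN2 had the partner with the lowest value. APH1B, a scaffold subunit encoded on chromosome 15, had 18.9 and 20.1 CPM in WT and 12.3 and 13.2 CPM in Helz-null cells. Its log2FC was -0.60 (adjusted p = 3.00e-08), while the subunits NCSTN (0.23) and PSENEN (0.30) were higher. In ceramide synthesis, the pathway of DEGS1, KDSR on chromosome 18 had 41.9 and 40.7 CPM in WT and 58.1 and 63.2 CPM in Helz-null cells. KDSR, a reductase of the second step, was higher (log2FC 0.56, adjusted p = 1.71e-12), as was the ceramide synthase CERS1 (0.37). ARF4 (-0.29) and ARF6 (-0.25) were lower in the ARF family, and COQ9 (-0.21) in coenzyme Q synthesis. UNG, a uracil glycosylase, was lower (-0.20) among 10 base excision repair genes. Of the partners called lower, SEC13, ARMC8, ATXN7 and ARF4 lie on chromosome 3, where the genes next to them were not examined here. Of the 5 tested partners of IBA57, none was called by edgeR or by DESeq2, with 2 at an unadjusted p under 0.05. With DESeq2, 6 of the 21 calls were lost (COG1, COG4, NUP107, MKLN1, YPEL5 and COQ9), and 11 were kept under every alternative. Without 1 library, the calls of PSENEN, ARMC8, RBBP4 and TAF10 were also lost. Without WT replicate 1, the log2FC of COQ9 was -0.11, and the log2FC of PSENEN was 0.20.

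**Figure D3:**
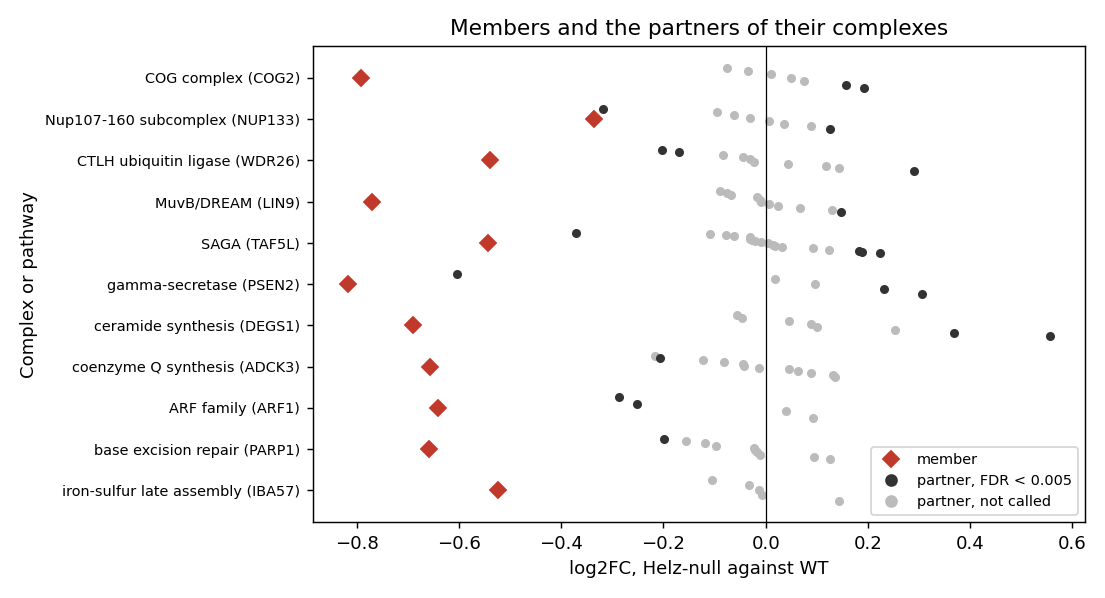
Log2FC of Helz-null against WT cells (horizontal axis) for the member (red diamond) and its tested partners (points) in each of 11 complexes or pathways (vertical axis). Dark points are partners called at an FDR under 0.005 and light points those not called; the partners centre near 0 and the members lie between -0.82 and -0.34.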

How the data were processed

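Per the study's methods, reads of ribosomal RNA were filtered out with Bowtie2, the other paired-end reads were aligned to hg19 by TopHat2, and QuasR gave the counts per gene, which the authors deposited as raw counts. Libraries were made with a TruSeq RNA kit. Annotation, strand use and the counting of mates were not stated in the sources used here, but the deposited totals are well above the mapped reads given in the methods, so both mates were probably counted. The deposited comparison table holds the authors' edgeR comparison (fold changes, mean levels, p-values, FDR), none of which was used; only its gene names served as the list of tested genes. The test was that of edgeR 4.0.16 in R 4.3.3 (TMM, glmQLFit, glmQLFTest, Benjamini-Hochberg FDR under 0.005), checked on simulated data, with DESeq2 1.42.0 as an alternative. FPKM is TMM-scaled CPM per kilobase of the deposited gene width. Positions came from GENCODE release 44 on GRCh37, matched by symbol for 10379 tested genes, by an older symbol for 517 and not for 82. The floor was 3 counts, 0.0430 to 0.0732 CPM per library; intervals and floors cover counting error and the spread of these libraries only. Replicates are labelled biological, and the chi-square of their counts per degree of freedom was 4.15 for WT and 3.01 for Helz-null, where sampling noise alone gives about 1, or about 2 if both mates of a pair were counted. Members and lists were chosen with earlier results of these data known. By the rule for named genes, these are HELZ, the members, 10 tested genes on each side (given by count, with examples), the 5 unlisted genes of highest count, 1 of which is not reported here, and the called partners; others were named after their values were seen, as stated there.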

Additional observations from a re-analysis of the deposited data

How the results depend on the processing

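The 35 tested members kept their direction and their call under the 12 alternative fits, in 420 of 420 values, which follows in part from their choice. Their median log2FC of -0.57 lay between -0.59 and -0.56 with single libraries left out and was -0.53 with scaling by library size only. Over the 43 tested genes from FBXO28 to C1orf198, listed or not, which leaves out the members TTC13 and ARV1, it was -0.64. With the replicate block the median was -0.56, 1677 genes were called higher and 1841 lower, 35 members were called lower, and 23 partner genes were called, 10 lower and 13 higher. The replicate numbers did not pair the libraries (correlation of same-number deviations 0.032). An FDR under 0.05 gave 2371 genes called higher in place of 1524, and 34 partner genes called in place of 21, of which 21 were higher in place of 12, by construction of the looser threshold. Scaling by library size only gave 2109 genes higher and 1318 lower, so that 38.5% of calls were lower in place of 52.7%; the median of all tested genes then moved to 0.03. With single libraries left out, 1027 to 1544 genes were called higher and 1180 to 1659 lower; a group of 1 library was then assumed to vary like the other group. Of 1234 values for 103 named genes, 39 lost their call and 3 changed sign, all of genes that were not called: with single libraries left out, the log2FC lay between -0.125 and 0.0353 for GPATCH2, between -0.0864 and 0.0017 for NEFL and between -0.0189 and 0.14 for COL1A1. The depth limited LEFTY1, AGT and MIXL1, whose counts were low, and left a wide interval for TRIM17.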
